A study of Caenorhabditis elegans with 2 samples.

Results

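The data were sites on the genome of Caenorhabditis elegans where a tagged form of the protein C17E4.6 was found by chromatin immunoprecipitation followed by sequencing (ChIP-seq), and the 150 sites described here lay at divergent promoters of the autosomes, where the starts of a pair of genes face away from each other. A site was taken when its peak's summit was no more than 500 bp before and 200 bp past the annotated 5' end of at least 1 of a pair of coding genes whose neighbouring 5' ends lay on opposite strands, facing away, and at most 1000 bp apart. This rule took 150 of the 925 autosomal peaks, of 1017 peaks in all (ce11 assembly, Ensembl release 115 genes). Within the authors' combined list, positions of peaks and gene ends chose the sites, with no further cut on height or on presence in a replicate. The list itself was cut by the authors on the irreproducible discovery rate (IDR), a measure of how well ranked peaks reproduce. Height and agreement between replicates may thus have had a part in which peaks could be sites. There was 1 group, whole young adults of strain RW12293 at 62 hours, grown from starved first-stage larvae obtained by bleaching. All of them carried a CRISPR insertion that joins TY1, EGFP and 3xFLAG tags to C17E4.6, and the pull-down used an antibody against GFP in 2 biological replicates. No untagged or control worms were analysed here, so every worm carried the fusion, and whole animals mix germ line and somatic tissues. How many reads stand behind each list is not known.

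RefSeq names the product of C17E4.6 (WBGene00007645) as the homolog of vacuolar protein sorting-associated protein 72 (VPS72, also called YL1). In yeast, fly and human cells this protein binds the histone variant H2A.Z and belongs to the remodelling complexes that exchange it into nucleosomes, above all in those that flank promoters. In the worm, H2A.Z is the product of htz-1, and it is known at promoters of genes that are used in many tissues. A divergent promoter is a stretch of open chromatin from which both strands are transcribed outward, so 1 site can lie upstream of both genes. Transcripts of many worm genes are trans-spliced, and their annotated 5' end then lies downstream of the true start.

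The sequence under the summits is shown for 9 of these sites, chosen because they include the highest peak, several pairs of genes with related roles, the promoter of the H2A.Z gene and pairs of ribosomal protein genes that the later results refer back to. Each is the RefSeq sequence (ce11) of the summit with 75 bp on each side, plus strand, and capitals mark matches on either strand to the 13 motifs searched. A heat shock element here means only a match to the word GAANNTTC. Neighbouring matches were each counted, so the count is of words and not of separate full elements.
The site of K01G5.10 and tasp-1, which code for a hydrolase of the haloacid dehalogenase family and for the homolog of taspase, a protease, was the highest of the 150, at chrIII:10759175-10759325: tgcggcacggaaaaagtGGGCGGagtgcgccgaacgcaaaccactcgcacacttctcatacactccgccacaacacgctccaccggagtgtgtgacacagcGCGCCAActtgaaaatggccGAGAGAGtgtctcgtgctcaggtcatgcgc
The site of rpl-20 and Y17G9B.5, a ribosomal protein and the homolog of the mitochondrial protein ECSIT, had no match, at chrIV:4749993-4750143: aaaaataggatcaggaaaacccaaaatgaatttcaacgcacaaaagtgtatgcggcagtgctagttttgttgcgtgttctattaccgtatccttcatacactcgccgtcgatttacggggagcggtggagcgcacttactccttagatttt
The site of drr-2 and set-16, an RNA-binding protein and a chromatin protein of the MLL family of histone methyltransferases, is at chrIII:13643676-13643826: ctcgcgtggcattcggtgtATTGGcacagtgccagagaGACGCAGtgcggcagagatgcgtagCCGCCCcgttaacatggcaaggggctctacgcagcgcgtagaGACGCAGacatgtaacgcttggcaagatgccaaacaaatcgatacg
The site of rpl-12 and lin-54, a ribosomal protein and a DNA-binding subunit of the DREAM complex, is at chrIV:13240603-13240753: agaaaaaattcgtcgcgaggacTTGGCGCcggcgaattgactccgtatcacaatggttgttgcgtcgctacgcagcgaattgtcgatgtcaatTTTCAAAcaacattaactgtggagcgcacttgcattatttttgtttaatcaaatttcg
The site of F44E5.4 and F44E5.5, both Hsp70 chaperones, held 3 heat shock elements, at chrII:11759413-11759563: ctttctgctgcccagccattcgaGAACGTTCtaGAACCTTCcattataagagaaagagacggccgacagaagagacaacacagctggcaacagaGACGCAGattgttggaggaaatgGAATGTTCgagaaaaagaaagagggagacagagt
The site of npp-3 and top-2, a nuclear pore protein and DNA topoisomerase II, held both E2F-type words, at chrII:11874803-11874953: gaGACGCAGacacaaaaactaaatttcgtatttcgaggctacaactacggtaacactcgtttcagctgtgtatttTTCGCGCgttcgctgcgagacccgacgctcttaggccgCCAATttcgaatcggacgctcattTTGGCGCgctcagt
The site of wapl-1 and htz-1, the cohesin release factor and H2A.Z, had no match, at chrIV:4445828-4445978: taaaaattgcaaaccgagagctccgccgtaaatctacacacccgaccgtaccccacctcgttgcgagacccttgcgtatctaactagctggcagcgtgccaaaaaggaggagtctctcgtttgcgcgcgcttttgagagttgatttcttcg
The site of rpl-7A and set-21, a ribosomal protein and a SET domain protein, is at chrIV:4390578-4390728: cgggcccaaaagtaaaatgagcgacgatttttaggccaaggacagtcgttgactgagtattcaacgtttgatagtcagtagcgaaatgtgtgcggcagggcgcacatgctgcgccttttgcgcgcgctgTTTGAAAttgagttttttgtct
The site of rpl-39 and rps-30, a ribosomal protein of each subunit, is at chrV:7776237-7776387: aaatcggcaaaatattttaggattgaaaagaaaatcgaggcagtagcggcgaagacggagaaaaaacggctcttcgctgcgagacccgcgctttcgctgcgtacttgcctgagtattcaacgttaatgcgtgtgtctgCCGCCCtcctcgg

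Divergent promoters held more than their share of the genome's peaks. The windows of the 1665 autosomal head-to-head pairs covered 1592277 bp and held 94.2 peaks per Mb. Promoter windows of the other coding genes held 29.4 peaks per Mb over 9659115 bp, and the rest of the autosomes 6.89 per Mb. Outside gene bodies, the stretch between paired 5' ends held 159 peaks per Mb, and the 500 bp upstream of other genes held 38.4. The 150 peaks were 16.2% of the autosomal peaks (95% Wilson interval 14 to 18.7) and 34.6% of the 434 autosomal peaks at promoters. They fell on 144 pairs, which is 8.65% of the pairs (7.39 to 10.1). By single genes, 259 of the 3330 genes in head-to-head pairs had a summit in their own window and are called marked, or 7.78%. The share was 3.11% of all 17242 autosomal coding genes, which include the 3330. At 115 sites 1 summit marked both genes, so genes of a pair are not independent counts, here or in the gene lists below. A summit nearer the partner can also mark a head-to-head gene. The rule by itself thus favours a higher marked share in such pairs than among genes elsewhere. All these values are descriptions with no test, since regions of 1 group are not replicates, and the intervals cover counting error only. On the X chromosome 1 of 80 head-to-head pairs had a peak, or 1.25% (0.221 to 6.75).

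Most summits lay in the stretch that the genes of a pair share. The summit was between the 5' ends in 130 of the 150 sites (86.7%, 80.3 to 91.2), past the end of the minus-strand gene in 8 and past that of the plus-strand gene in 12. Both genes had the summit in their window in 115 sites (76.7%, 69.3 to 82.7). The distance from the summit to the nearer 5' end had a median of 129.5 bp, with quartiles of 63.2 and 204 bp, and the distance to the farther end a median of 315 bp. At promoter peaks of other genes the nearest 5' end lay at a median of 204.5 bp. The rule for pairs places the 5' ends of both genes near a divergent site, which by itself favours a shorter distance to the nearer end. The medians of 129.5 and 204.5 bp thus cannot show whether summits at divergent promoters lie closer to 5' ends. The minus-strand gene was the nearer one in 63 sites (42.0%, 34.4 to 50). Among the 130 summits between the ends, 60 were in the central part when the stretch was cut in 3 equal parts (46.2%, 37.8 to 54.7).

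**Figure D1:**
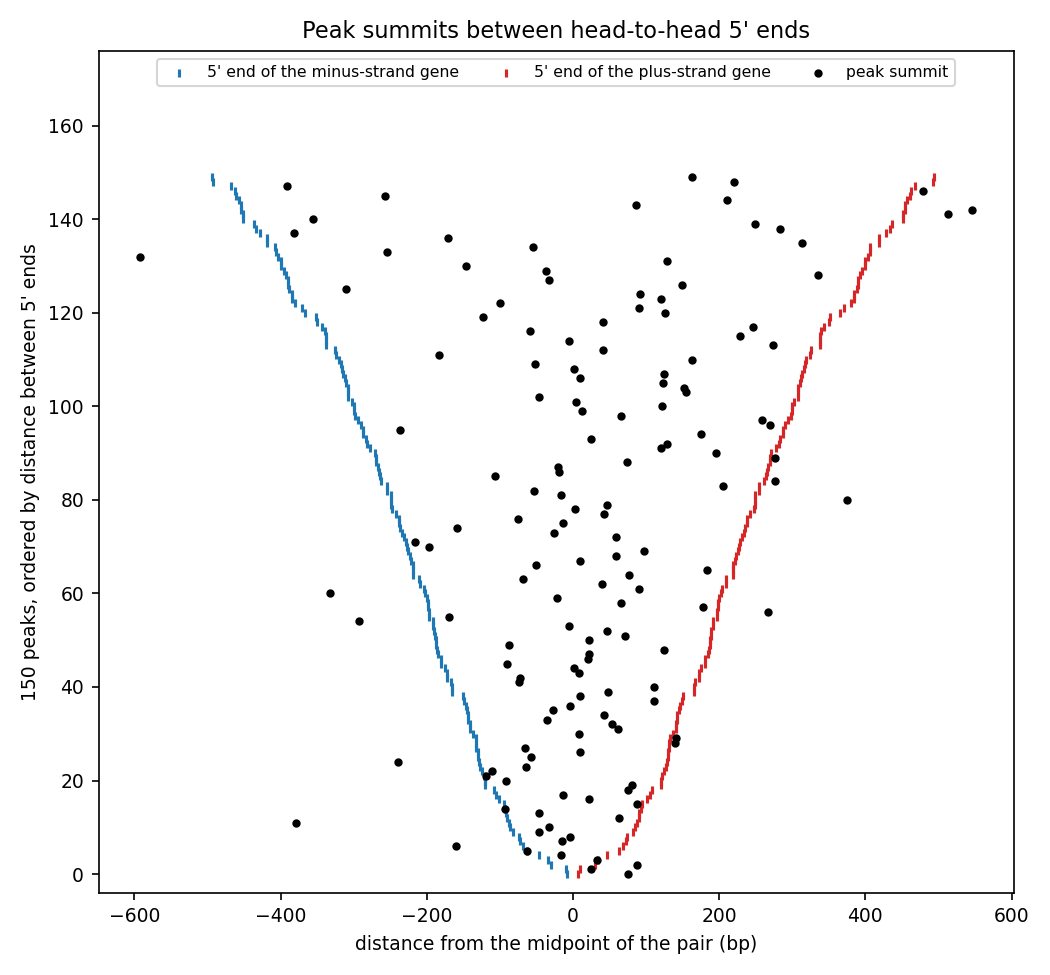
Position of each of the 150 summits (black points) relative to both 5' ends of its pair (blue, minus-strand gene; red, plus-strand gene), in bp from the midpoint of the pair, with the sites ordered by the distance between the ends. The summits fill the stretch between the ends at short and long distances, and 20 lie outside it.

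The distance between the 5' ends of the pairs with a site had a median of 464.5 bp, close to the 476 bp of the 1521 pairs without one. The share of pairs with a site was 6.61% (4.11 to 10.5) at distances of 1 to 200 bp, 9.53% (7.16 to 12.6) at 201 to 400 bp and 10.6% (7.85 to 14.1) at 401 to 600 bp. It was 8.88% (6.29 to 12.4) at 601 to 800 bp and 5.88% (3.60 to 9.48) at 801 to 1000 bp. The intervals of all 5 classes overlap. Both genes had the summit in their window in 44 of the 44 sites at 201 to 400 bp, but in 1 of 18 at 801 to 1000 bp, which the width of the window itself limits. In that last class the nearer end was at a median of 169.5 bp and the farther at 717 bp. The shortest distance was 15 bp, at F25H9.6 and F25H9.7, a flavoprotein and an assembly factor of succinate dehydrogenase, and the longest 989 bp, at larp-1 and wip-1.

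**Figure D2:**
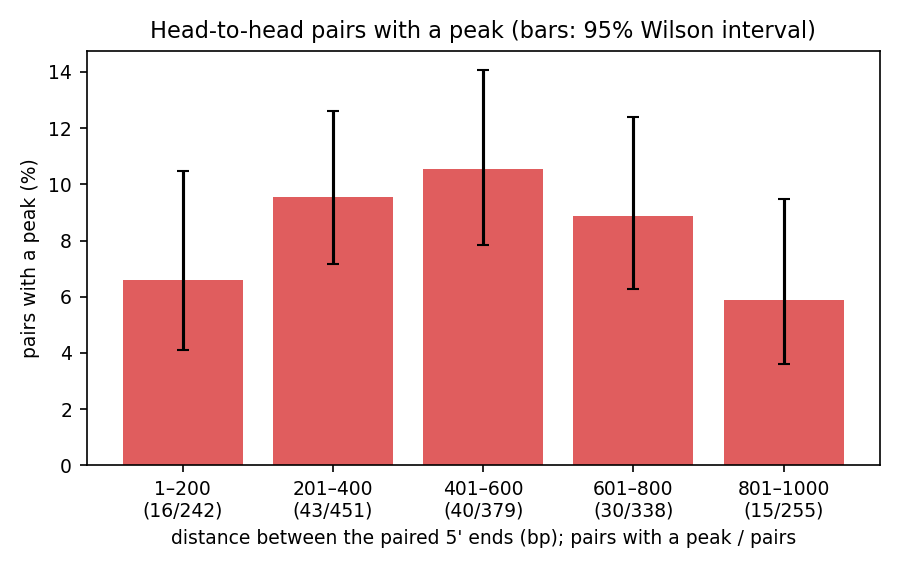
Percent of head-to-head pairs with a peak (bars, with 95% Wilson intervals) for 5 classes of distance between the paired 5' ends, with the number of pairs with a peak and of all pairs under each bar. The share is 10.6% at 401 to 600 bp and 5.88% at 801 to 1000 bp, and the intervals overlap.

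The peaks at divergent promoters had a somewhat higher median signal than other autosomal peaks, but not clearly higher than promoter peaks of other genes. The signal is the authors' value for each peak, on a scale that is not stated, and it describes and ranks peaks within a list. Its median over the 150 sites was 94.1 (95% interval of the median 86.7 to 106), with quartiles of 70.9 and 126 and a range of 3.10 to 408. The median was 83.3 over the 284 peaks at promoters of other genes (78.9 to 88.3), an interval that overlaps that of the sites. It was 72.7 over 257 in gene bodies, 80.6 over 234 intergenic peaks and 80 over all autosomal peaks. The 150 sites gave 28 of the 100 highest autosomal peaks and 8 of the 100 lowest. The score deposited with each peak stood at its cap of 1000 in 119 sites (79.3%), beside 77.5% of the promoter peaks of other genes.

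**Figure D3:**
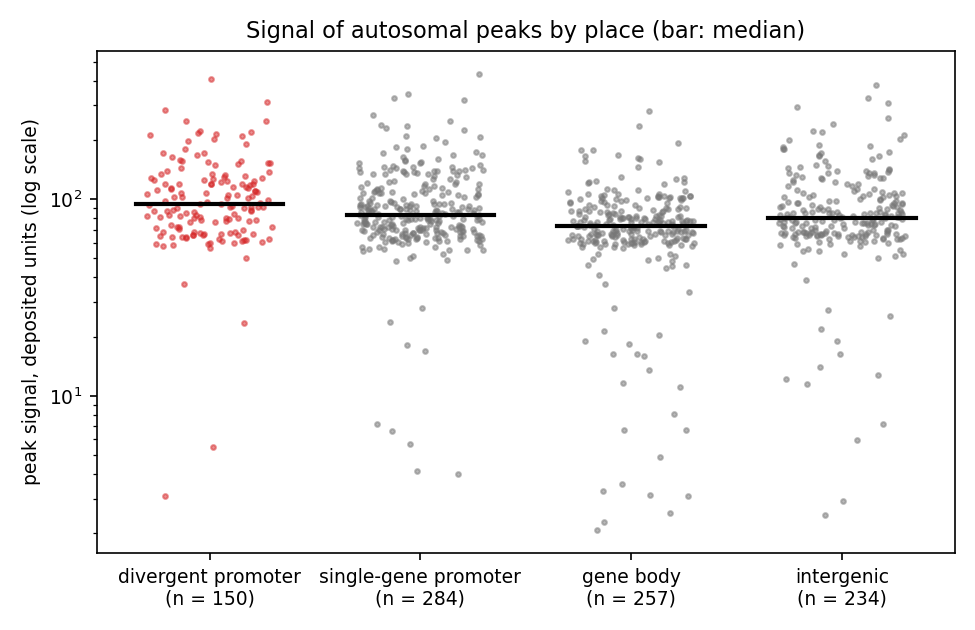
Signal of each autosomal peak in the authors' units on a log axis, by the place of its summit, with a bar at the median. The medians are 94.1 at divergent promoters, 83.3 at promoters of other genes, 72.7 in gene bodies and 80.6 in intergenic sequence, and the ranges overlap widely.

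Each replicate also had its own list of peaks past the authors' threshold. Of the 150 sites, 63 overlapped a peak past the threshold in both replicates, which is 42.0% (34.4 to 50), beside 29.2% of all autosomal peaks. The share was 30.3% (25.2 to 35.9) at promoters of other genes, 17.1% (13.0 to 22.2) in gene bodies and 32.9% (27.2 to 39.2) in intergenic sequence. A further 35 sites passed in replicate 1 alone, 17 in replicate 2 alone and 35 in neither. The median signal in the combined list was 133 for sites past the threshold in both replicates and 66.1 for those in neither.

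For 146 sites a summit within 100 bp was listed in both ranked lists, 1 per replicate. The signal was higher in replicate 1 at 117 of them, and the median log2 ratio of replicate 2 to replicate 1 was −0.36 (SD 0.49, n = 146), beside −0.33 over the 831 matched autosomal peaks. Summits differed by a median of 22.5 bp between the replicates and by 50 bp or less in 120 sites (82.2%). Across sites, replicate signals had a Spearman correlation of 0.706 (n = 146), and at promoter peaks of other genes 0.525 (n = 262). These points share libraries, so the correlations are descriptions. The 100 bp limit of the match bounds the summit differences, and the authors' IDR threshold favours peaks that reproduce. The agreement of the replicates is thus set in part by how sites were chosen and matched.

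**Figure D4:**
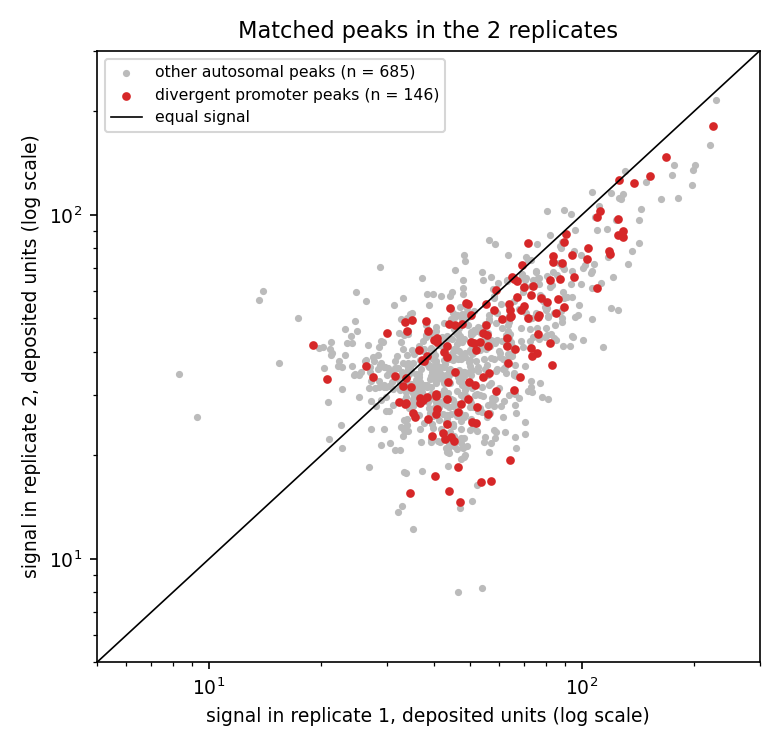
Signal of matched autosomal peaks in replicate 1 and replicate 2, in the authors' units on log axes, with 146 divergent promoter peaks in red, 685 other peaks in grey and a line of equal signal. Of the red points 117 lie below the line.

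Among the highest sites were promoters of genes of the ribosome, of protein folding and of chromatin. At K01G5.10 and tasp-1 the signal was 408 in the combined list, 225 in replicate 1 and 182 in replicate 2, with the summit 57 bp upstream of tasp-1. The site of rpl-20 and Y17G9B.5 had 313, with 168 and 147 in the replicates, and that of rpl-15 and K11H12.8, the gene of a GHITM-type mitochondrial membrane protein, had 285, with 153 and 130. At epc-1, the enhancer of Polycomb homolog, and Y111B2A.12, a WD repeat protein, it was 249.3, with 126 in each replicate. All 15 sites of highest signal passed the threshold in both replicates, and replicate 1 was the higher in 14 of them, the exception being epc-1.

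The remaining sites of the 15 highest went from 249.1 at drr-2 and set-16 to 180 at tbb-1 and rib-2, a beta-tubulin and a glycosyltransferase of heparan sulfate. The site of rpl-12 and lin-54 had 222, 27 bp upstream of rpl-12 and 366 bp upstream of lin-54. Y22D7AL.10 and hsp-60, which code for the mitochondrial partner chaperonins Hsp10 and Hsp60, had a site of 220 between them, 152 bp upstream of Y22D7AL.10 and 661 bp upstream of hsp-60, outside the window of hsp-60. The Hsp70 pair F44E5.4 and F44E5.5 shared one of 214, almost midway at 177 and 174 bp. The site of cct-8, a subunit of the cytosolic chaperonin, and Y55F3AR.2, a thioredoxin domain protein, had 217, and that of npp-3 and top-2 had 213. The others were ifet-1, a translational repressor, with rps-1 (210), rps-19 with hsr-9 (202), larp-1, an RNA-binding protein, with wip-1 (197), and lin-53, a histone-binding protein, with nra-2, the nicalin homolog (190).

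At the other end, the site of clec-87, a C-type lectin, and rsa-1, a phosphatase subunit of the centrosome, had a signal of 37.2, and that of uaf-2, a splicing factor, and itsn-1, intersectin, had 50.3. The 3 lowest sites were second peaks at a pair that already had a higher one, with 23.5 at let-630 and hcp-6, 5.50 at czw-1 and F20D12.12, and 3.10 at gex-5 and C38D4.10. None of these 3 had a matching summit in the ranked list of either replicate. The site at czw-1 still counts among those past the threshold in both replicates, because overlap with a thresholded peak was enough. In all, 6 pairs had 2 sites, the other pairs being Y71H2AM.20 and nduc-2, ecps-1 and atx-2, and mzt-1 and enu-3.3. At ecps-1 and atx-2, a proteasome-associated protein and ataxin-2, the signals were 128 and 97.9, and both sites passed the threshold in both replicates.

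The replicates differed most at a few low sites. At sna-2, an RNA-associated protein, and T13F2.6 the signal was 57.0 in replicate 1 and 16.8 in replicate 2, a log2 ratio of −1.76. The ratios were −1.73 at Y41D4A.6 and Y41D4A.4, −1.69 at fbxc-44 and C16A11.2 and −1.68 at rpl-21 and C14B9.10. In the other direction, rla-2, the acidic ribosomal protein P2, and popl-7 had 19.0 and 41.9, a log2 ratio of 1.14, and its neighbours in that order were clec-87 and rsa-1 at 0.69, F35G12.7 and smc-4 at 0.60, and jmjd-4 and mev-1 at 0.54. All 8 sites had a combined signal under 100.

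Genes for the machinery that places H2A.Z, the complexes to which a VPS72 protein would belong, were among the sites. Of the 8 genes of H2A.Z and TIP60-type complexes in head-to-head pairs, 5 had a summit in their own window, beside 7.78% of all genes in such pairs, and none of the 7 genes of this list elsewhere on the autosomes did, which allows up to 42.9%. The tagged gene was 1 of them, and the others were htz-1, ekl-4, epc-1 and mrg-1. The chromodomain gene mrg-1 shared a site of 120 with spcs-2, a signal peptidase subunit, and ekl-4, the homolog of DMAP1, one of 90.9 with the ribosomal gene rps-20. The site of mrg-1 passed the threshold in both replicates, and that of ekl-4, with 56.2 and 34.7, in replicate 1 alone. At htz-1 and wapl-1 the signal was 83.0 in replicate 1 and 36.5 in replicate 2, and only replicate 1 passed the threshold. At C17E4.6 and pabp-2, a poly(A)-binding protein, the signal was 85.3, with 42.8 and 40.04 in the replicates, 154 bp upstream of C17E4.6, and only replicate 2 passed. This pair carries the tag insertion in every worm, and the part of the insertion in that peak was not tested.

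Other chromatin genes were marked as well. Of the 4 head-to-head genes of the DREAM complex and synMuv B group 3 were marked (75%, 30.1 to 95.4), beside 7.78% of all head-to-head genes. Elsewhere 3 of 10 genes of this list were marked (30%). The complex is known as a repressor of the cell cycle. The 3 in head-to-head pairs were lin-54 and lin-53, described above, and lin-35, the retinoblastoma homolog, whose site shared with vps-51 had 91.1. Of the 17 head-to-head histone methyltransferase and chromatin genes 4 were marked (23.5%, 9.56 to 47.3), beside 4 of 50 elsewhere. Those in head-to-head pairs were set-16, set-21, jmjd-1.2, a demethylase paired with the cytochrome oxidase gene F29B9.11 (120), and jmjd-4. Histone genes lie mostly in head-to-head pairs, 61 of 76, and 5 of the 61 were marked (8.20%, 3.55 to 17.8), in 3 sites, near the 7.78% of all head-to-head genes. The 3 sites include that of htz-1, described above. Elsewhere 3 of 15 histone genes were marked (20%). The replication-type pairs his-67 with his-68 and his-60 with his-59 had 120 and 62.9. Replication-type histone genes are near-identical copies, and how the authors placed reads that match several of them is not given. The sites at those pairs are thus uncertain.

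Among lists with 10 or more head-to-head genes, the ribosomal proteins of the small subunit had the highest marked share. Of the 19 in head-to-head pairs 10 had a summit in their window (52.6%, 31.7 to 72.7), and 3 of the 12 elsewhere did. The signal over their 10 sites had a median of 97.8 and went from 58.9 at rps-30 to 210 at rps-1, with 172 at rps-12 and its partner ska-3, a kinetochore protein. Of the 28 large subunit genes in head-to-head pairs 6 were marked (21.4%, 10.2 to 39.5), beside 6 of 17 elsewhere, so head-to-head genes did not stand above the others there. Their 6 names were rpl-12, rpl-15, rpl-20, rpl-21, rpl-39 and rpl-7A. In the 15 sites with 1 ribosomal protein gene of these lists, the summit lay at a median of 282 bp upstream of that gene and 196 bp upstream of its partner, and the ribosomal gene was the nearer one in 7. F22D6.8, which RefSeq gives as small subunit protein S25, and rla-2 also had sites but carry names outside the lists. None of the 25 head-to-head mitochondrial ribosomal protein genes named as such was marked, which allows up to 12%. This list goes by name and leaves out let-630, which RefSeq gives as a small subunit protein of that ribosome. That gene, paired with hcp-6, was marked, with a summit 67 bp upstream of it.

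Genes of protein folding and of the secretory pathway were marked above the share of all head-to-head genes. Of the 30 head-to-head chaperone and heat shock genes 10 were marked (33.3%, 19.2 to 51.2), beside 4 of 37 elsewhere. In the 11 sites with 1 gene of this list, that gene was the nearer one in 3. The summit lay at a median of 278 bp upstream of the listed gene and 187 bp upstream of its partner. The marked genes were the chaperonin genes cct-1, cct-5, cct-7 and cct-8, the co-chaperones dnj-13, dnj-19, dnj-28 and dnj-29, the mitochondrial Hsp70 gene hsp-6 and hsp-110. The site of hsp-110 and rpn-3, a proteasome subunit, had 144, and that of dnj-13 and F54D5.9, an F-box protein, 171. Of the 28 head-to-head genes of the secretory pathway 6 were marked (21.4%, 10.2 to 39.5). The translocon genes sec-61.B and trap-3 shared a site of 157, and rab-18, a small GTPase, shared one of 131 with the kinetochore gene kbp-4. Of the 41 head-to-head proteasome and ubiquitin genes 4 were marked (9.76%, 3.86 to 22.5), near the share of all head-to-head genes, with 150 at aka-1 and ubc-6, an endosomal protein and an E2 enzyme.

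Nuclear pore and transport genes had 8 of 21 head-to-head members marked (38.1%, 20.8 to 59.1), beside 4 of 20 elsewhere. Besides npp-3, the importin gene ima-1 had 159, shared with dvc-1, a DNA repair protease, and ran-1, the GTPase of nuclear transport, had 135, shared with dkc-1, a protein of small nucleolar particles. Cell cycle and replication genes had 10 of 49 marked (20.4%, 11.5 to 33.6), beside 9 of 51 elsewhere. Their examples after top-2 were klp-16, a kinesin paired with smn-1 (125), and bmk-1, a kinesin paired with the meiotic cohesin gene coh-3 (109). The spindle checkpoint gene mdf-2 shared a site of 79.2 with nduv-3, a subunit of respiratory complex I.

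Genes of the germ line and the early embryo were also among the sites. Of 32 head-to-head genes of germ granules, small RNAs and meiosis 7 were marked (21.9%, 11.0 to 38.8), beside 2 of 29 elsewhere. The site of mei-2, a subunit of katanin, and syp-6, of the synaptonemal complex, had 129. The meiotic cohesin gene rec-8 and mex-5, a regulator of embryo polarity, shared a site of 118, with 76.4 and 45.1 in the replicates. Of 10 head-to-head genes of the oocyte and early embryo 3 were marked (30%, 10.8 to 60.3), beside 9 of 48 elsewhere. Those in head-to-head pairs were mex-5, pos-1, paired with the proton pump gene vha-18 (114), and par-5, a 14-3-3 protein paired with its relative M117.3 (76.8).

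Genes of energy supply and of RNA made up further groups. Respiratory chain genes had 7 of 33 head-to-head members marked (21.2%, 10.7 to 37.8), beside 4 of 31 elsewhere. Among them were atp-1, of ATP synthase, paired with mcrs-1 (123), ndub-8, of complex I, paired with cup-14 (114), and mev-1, of complex II, paired with jmjd-4 (90.3). Translation factors had 4 of 24 (16.7%, 6.68 to 35.9), beside 1 of 18 elsewhere. That interval holds the 7.78% of all head-to-head genes. The signal was 165 at iff-2, which codes for eIF5A, and 137 at eef-2 and clsp-1, an elongation factor and claspin. The site of eef-1A.1 and rfc-4, an elongation factor and a replication factor C subunit, had 66.1. RNA polymerase and Mediator genes had 4 of 13 (30.8%, 12.7 to 57.6), beside 4 of 50 elsewhere. The site of rgr-1, of Mediator, and gpr-2, of the spindle positioning pathway, had 129. Splicing genes had 3 of 29 (10.3%, 3.58 to 26.4), near the 7.78% of all head-to-head genes, and the paralogous splicing factor genes rsp-2 and rsp-1 shared a site of 96.1. Among tRNA synthetase genes 1 of 11 was marked (9.09%, 1.62 to 37.7), also near that share. It was ears-2, 30 bp from a summit it shared with uncp-18 (102).

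Chemoreceptor genes were marked less often than head-to-head genes as a whole. Of 143 head-to-head chemoreceptor genes 2 were marked (1.40%, 0.384 to 4.96), and of 1186 elsewhere 1. One of the 2, sri-5, lay opposite rsr-1, an RNA processing factor (102). Genes of the F-box and MATH-BATH families had 4 of 87 head-to-head members marked (4.60%, 1.80 to 11.2), an interval that holds the 7.78% of all head-to-head genes, and none of 291 elsewhere, which allows up to 1.03%. Their partners were hex-3, a hexosaminidase, at fbxb-85 (123), cyn-7, a cyclophilin, at bath-36 (66.4), C16A11.2, a homolog of CCDC93, at fbxc-44 (62.4), and csc-1, of the chromosomal passenger complex, at fbxc-23 (56.7). No gene was marked among 19 cuticle collagens, 15 major sperm proteins and 9 neuropeptides in head-to-head pairs, which allows up to 15.8%, 20% and 33.3%, limits that all lie above 7.78%.

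**Figure D5:**
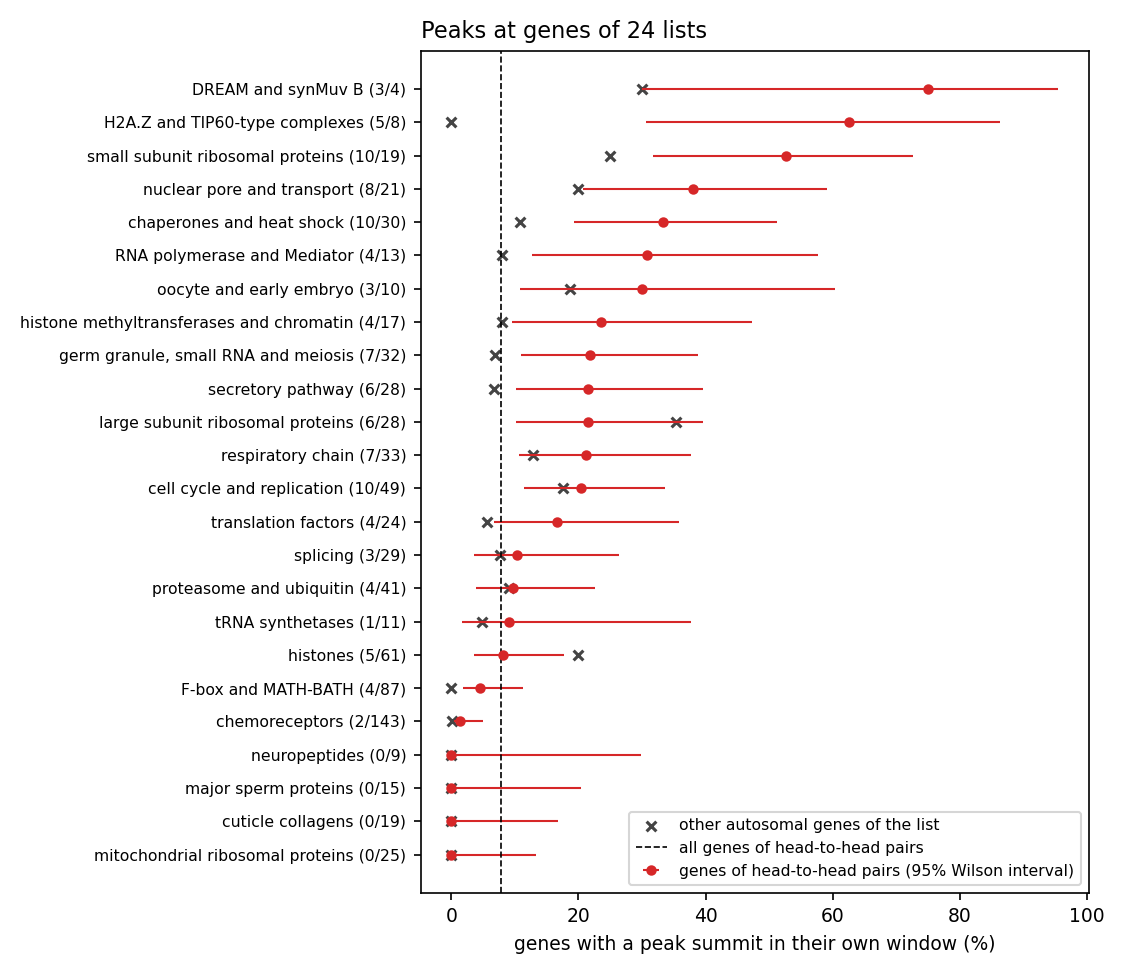
Percent of genes with a summit in their own window for 24 lists, with genes of head-to-head pairs in red (95% Wilson interval, marked and all genes in brackets) and other autosomal genes of the list as crosses, and a dashed line at the 7.78% of all head-to-head genes. The lists from DREAM at 75% down to respiratory chain and cell cycle at 21.2% and 20.4% have intervals above the line, and 4 lists are at 0.

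Over all 24 lists, sites were found at 50 of 1053 pairs with no listed gene (4.75%, 3.62 to 6.21), at 76 of 470 with 1 (16.2%, 13.1 to 19.8) and at 18 of 142 with both genes listed (12.7%, 8.17 to 19.1). The lists were drawn up with results of these data known, so the shares are descriptions.

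By chromosome, the share of pairs with a site was 13.1% on III (9.70 to 17.5), 11.6% on I (8.51 to 15.5), 8.44% on IV (5.83 to 12.1), 6.79% on II (4.53 to 10.1) and 4.96% on V (3.27 to 7.47). The interval of V lies below those of III and I and overlaps those of II and IV. The median signal by chromosome went from 87.5 on V to 102 on IV.

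Sites at divergent promoters were richer in G and C than divergent promoters without a peak. The windows of 75 bp each side of the 150 summits had a median GC content of 45.7%, with quartiles of 40.4% and 50.3%. The midpoints of the 1521 pairs without a peak had 33.1%, and CG dinucleotides averaged 10.8 and 5.18 per window. Promoter peaks of other genes had 44.7% and 10.1, close to the divergent sites. The part of GC content in the finding of peaks was not tested.

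The E2F-type words TTGGCGC and TTCGCGC, sites for cell cycle regulators, were each in 19 of the 150 windows (12.7%, 8.26 to 18.9) on either strand. They were in 1.58% and 1.84% of the midpoints without a peak, and in 9.86% and 13.0% of windows at promoter peaks of other genes. At least 1 of the 2 words was in 33 sites (22%, 16.1 to 29.3) and in 3.35% of the midpoints. Among windows of 40% GC or more it was in 26 of 117 sites (22.2%, 15.6 to 30.6) and in 15 of 308 midpoints (4.87%, 2.97 to 7.88), so the difference was about as large there. The word CTGCGTC, of the EOR-1 type, was in 10.7% of sites (6.67 to 16.6) and 2.37% of midpoints, but at 40% GC or more in 11.1% (6.61 to 18.1) and 6.49% (4.24 to 9.82), with overlapping intervals.

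Words of the heat shock element type, spelled GAANNTTC, were in 24 sites (16%, 11.0 to 22.7), in 8.45% of other promoter peaks (5.74 to 12.3) and in 11.0% of midpoints (9.57 to 12.7). CCAAT was in 24% of sites, 21.8% of other promoter peaks and 22.7% of midpoints, and CCGCCC, of SP1 type, in 12%, 7.04% and 4.73%. At 40% GC or more CCGCCC was in 15.4% of sites (9.96 to 23.0) and 14% of midpoints (10.5 to 18.3), close to each other. GAGAGAG was in 6.67%, 9.86% and 2.43%, and the E-box CACGTG in 4%, 3.87% and 3.02%. The words rich in A and T were less frequent at sites than at midpoints, with TATAAA in 6.67% and 21.1%, a run of 7 T in 20.7% and 34.4%, TTTGAAA of the CHR type in 15.3% and 22.9%, and the GATA-type CTGATAA in 1.33% and 4.14%, with overlapping intervals for the last pair of words. At 40% GC or more TATAAA was in 3.42% (1.34 to 8.46) and 9.09% (6.36 to 12.8), and the T run in 16.2% and 18.2%, with overlapping intervals. There TTTGAAA went the other way, in 11.1% and 8.77%, and CTGATAA was in 1.71% and 2.60%, so the lower share at sites did not hold for every such word. The ETS-type word CCGGAAG was in 1 site, 0.667%, and in 0.592% of midpoints. A match is a description of letters, and midpoints are not summits, so the windows of pairs without a peak may miss the part of the promoter that a peak would centre on.

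Noncoding genes lay within 200 bp of the summit at 5 sites. They were sls-2.8, an RNA gene of the spliced leader group, at tim-1 and Y75B8A.23 (133), mir-4932 at smn-1 and klp-16, the snoRNA genes F09G2.14 at attf-2 and F09G2.2 (115) and F39B2.14 at tmem-107 and rps-26 (72.0), and mir-5549 at eef-1A.1 and rfc-4. A further coding gene had the summit in its window at 2 sites, lin-7 at Y54G11A.17 and elof-1 and Y54F10AM.15 at rbc-2 and ndua-8.

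The bounds of the rule cut through a continuous range. Just inside the distance bound were larp-1 and wip-1 at 989 bp and E04F6.6 and pcrg-1 at 984 bp (108). Just outside were peaks at xrep-4 and cey-2, 1018 bp apart (114), and at apb-1 and mdt-19, 1019 bp apart (62.8). Of the window, the sites closest to its edge were nstp-10 and ehbp-1, 12 bp inside (125), and spd-5 and npp-6, 33 bp inside (106). The closest outside were a second peak at epc-1 and Y111B2A.12, 4 bp past the edge (102), and one at agt-2 and F09E5.3, 27 bp past it (85.7).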

How the data were processed

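ChIP-seq was done on 2 biological replicates after sonication, per the labels, which name the ce11 assembly. Neither the aligner nor the caller of peaks is named in the sources used here. The authors deposited ranked and thresholded peak lists for each replicate and for both together, and the combined thresholded list, pooled over the replicates, was the main list. The signal deposited by the authors is a value per peak on an unstated scale. The deposited score starts at 830 in the thresholded list and is capped at 1000. In the combined ranked lists, 16 columns with values per replicate have no sample label and were left out. No list holds read counts, so the depth is unknown and intervals cover counting error only.

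Coordinates start at 1 and genes came from Ensembl release 115. Overlap meant at least 1 bp, and a count of 0 is given with the limit of 3 counts of the total, which differs from the Wilson bound drawn for the lists. The interval of a median is the 95% order-statistic interval. The sites, lists, motifs and rules were chosen with earlier results of these data known. The genes named were those at the 15 highest sites, the 4 largest and smallest replicate ratios, the 5 lowest sites, up to 3 sites per list, pairs with both genes listed, pairs with 2 sites, sites near noncoding genes and those at the bounds of the rule. All other genes were named after their values were seen. The chemoreceptor list lost 1 gene after the data were seen, because its name alone had put it there, and the site at that gene is not reported here. Windows of 40% GC or more, densities and words read off the printed sequences were added then too. The rule that takes pairs and sites was checked on synthetic input. Alternatives were the conservative list, a window of 250 bp upstream to 100 bp downstream, pairs at most 500 bp apart, each replicate alone, RefSeq 5' ends, other matching rules and windows of 50 bp for motifs. Python 3.11.15, pandas 2.3.3, numpy 2.4.6, scipy 1.17.1 and statsmodels 0.14.6 were used.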

Additional observations from a re-analysis of the deposited data

How the results depend on the processing

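The 7 results were recomputed under the alternatives, which gave 38 values. Of these, 28 stayed within the interval of the value reported, 10 moved out of it and none reversed. With the narrow window the sites were 13.1% of autosomal peaks, 7.03% of pairs had one and 38.8% of sites had both genes in the window. With pairs at most 500 bp apart the sites were 8.86% of peaks and 96.3% had both genes in the window. From each replicate's own list alone, sites were 19.4% to 21.4% of autosomal peaks, 4.74% to 5.89% of pairs had one, and the summit was between the ends in 86.1% to 93.8%. Those lists are shorter, with 521 and 379 autosomal peaks. RefSeq 5' ends gave 150 sites, 145 of them shared, 8.73% of pairs and 90.0% between the ends. Keeping the highest site of each pair, an alternative chosen after seeing the data, left all 5 values within their intervals. Motif windows of 50 bp each side moved 4 of 13 motif shares, all downward as shorter windows hold fewer words, among them CCAAT to 17.3% and the T run to 6.67%. Places that bind many unrelated factors were not marked off, and no control pull-down was used, so their share among the sites was not tested. No paired analysis was possible because there was 1 group.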

Other observations

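Sites at chaperone genes held heat shock words more often than other sites. Of the 11 sites with a gene of the chaperone list, 5 held GAANNTTC (45.5%, 95% Wilson interval 21.3 to 72.0), beside 19 of the 139 other sites (13.7%, 8.93 to 20.4) and 2 of 16 pairs with a chaperone gene but no peak (12.5%, 3.50 to 36.0), an interval that overlaps the first. The list leaves out F44E5.4 and F44E5.5, whose window held 3 such words, and ahsa-1, the homolog of an Hsp90 activator, whose window held 2. None of the 16 sites with a ribosomal protein gene of the lists held one, which allows up to 18.8%, and neither did any of the 28 such pairs without a peak, which allows up to 10.7%. E2F-type words were in 6 of the 12 sites with a cell cycle gene (50%, 25.4 to 74.6) in 27 of 138 others (19.6%, 13.8 to 27.0) and in 9 of 37 pairs with a cell cycle gene but no peak (24.3%, 13.4 to 40.1), and these intervals overlap the first. They were in 4 of the 9 sites with a nuclear pore or transport gene (44.4%, 18.9 to 73.3). The count was 29 of 141 at other sites (20.6%, 14.7 to 28.0) and 0 of 12 at such pairs without a peak. The 0 allows up to 25%, and both ranges overlap the first. The site of npp-3 and top-2 counts under both lists. These crossings of lists and words were chosen after the data were seen, and all intervals cover counting error only.

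A few longer words recur in the sequences printed above. TATTCAACG is in 2 printed windows, both shown as pairs with a ribosomal protein gene. Of the 141 other windows 2 held it (1.42%, 0.390 to 5.02), those of rps-20 and rps-0. It was in 1.06% of windows at promoter peaks of other genes (0.360 to 3.06) and 0.263% of the midpoints without a peak (0.102 to 0.674), with overlapping intervals. TGCGAGACC is in 3 printed windows and in 6 of the 141 others (4.26%, 1.96 to 8.97), beside 1.18% of midpoints (0.750 to 1.86). The words were read off the printed windows, so the count in those windows is no result.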
